A study of Mus musculus with 99 samples.

Results

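Egr1, Egr2, Egr3, Egr4, Nr4a1, Nr4a3, Arc and Npas4 are 8 activity-induced genes whose transcripts were followed across 5 brain regions of juvenile mice. They were found by Ensembl identifier among the 55335 identifiers of each count file, and all 8 were present. The libraries came from C57BL/6 offspring of both sexes. In the fentanyl groups the dams drank 10 µg/ml fentanyl from embryonic day 0 until weaning, and in the water groups they drank water. Exposure thus reached the pups through the dam, and the labels give neither the intake of a pup nor its litter. The bulk tissue was that of 2 cortical areas, primary somatosensory (S1) and prelimbic (PrL), of the nucleus accumbens (NAc) in the striatum, of the thalamus in its ventrobasal part (VBT), and of the midbrain in the ventral tegmental area (VTA). Each region had libraries of fentanyl females, water females, fentanyl males and water males, with 5 libraries in 19 of the 20 groups and 4 in S1 water males.

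These are immediate early genes, which neurons transcribe within minutes of synaptic input or a rise of calcium, without new protein synthesis. Kinases that respond to calcium and growth factors act on transcription factors such as CREB and SRF that already sit at their promoters. EGR proteins are zinc finger transcription factors, Nr4a1 and Nr4a3 encode orphan nuclear receptors, and Npas4 encodes a transcription factor that depends on neuronal calcium entry and shapes inhibitory synapses. Arc is different in kind, since its protein works at synapses, where it helps to remove AMPA receptors. In brain tissue the transcripts are widely read as a record of recent neuronal activity.

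All groups were compared over 98 libraries, with totals of 23032078 to 52069639 counts. One VTA library of a water male, number 3, had counts for fewer than 10000 genes and was left out. The libraries used detected between 24079 and 27347 genes. The labelled regions were checked with summed marker genes in CPM, counts scaled to a library total of 1000000. The 6 dopamine neuron markers summed to between 335 and 1733 CPM in VTA and to at most 69.3 CPM elsewhere. The 6 thalamic relay markers summed to between 1352 and 4190 CPM in VBT and to at most 930 CPM elsewhere. In NAc the 6 striatal projection neuron markers summed to between 1096 and 3799 CPM, and the 6 cortical markers to between 89.2 and 1425 CPM. In VBT 3 libraries stood apart, with striatal marker sums of 496 CPM in female water 2, 714 CPM in male water 3 and 293 CPM in male fentanyl 5, against at most 211 CPM in the other 17. The 6 choroid plexus markers set other libraries apart. In VBT they summed to 4556 CPM in female water 2, 240.0 CPM in female water 3 and 660.5 CPM in male fentanyl 5, against at most 38.3 CPM in the other 17. In VTA they summed to 1044 CPM in male water 2 and 395 CPM in female water 5, against at most 68.1 CPM in the other 17. Elsewhere S1 female water 2 (414 CPM), S1 male fentanyl 2 (232 CPM), PrL male water 1 (278 CPM) and NAc male fentanyl 3 (339 CPM) stood above the rest of their region, which reached at most 57 CPM. In bulk tissue, fewer cells that express a gene and less RNA per cell cannot be told apart.

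Egr2 was listed at 0 in all 99 libraries. So were 2338 of 21899 protein-coding genes, among them Men1, Ehd1, Nup43 and Raver1, which most cells use and which were picked as examples after their values were seen. A listing at 0 therefore says nothing about Egr2 transcripts, and the results concern the other 7 genes. In the annotation (GENCODE M21, build GRCm38) none of the 8 overlaps another gene. Egr3 lies at chr14:70077203-70082614 and Egr4 at chr6:85511121-85513589. Nr4a1 lies at chr15:101254269-101274795, Nr4a3 at chr4:48045153-48086447, Arc at chr15:74669083-74672570 and Npas4 at chr19:4984355-4990316.

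The promoters of 4 of these genes are shown, with letters that match part of the cyclic AMP response element marked. Each run is the 250 bases before the RefSeq start on build GRCm38.p6, 5′ to 3′ on the gene's strand, and capitals mark the 5-base half-site of the cyclic AMP response element, TGACG on either strand. Nr4a1 is taken from chr15:101266596-101266845 (plus strand), Nr4a3 from chr4:48045055-48045304 (plus), Npas4 from chr19:4989972-4990221 (minus) and Egr4 from chr6:85513590-85513839 (minus). The starts used by RefSeq for Nr4a1, Nr4a3 and Npas4 lie inside each gene's span in the annotation. Egr1, Egr3 and Arc are named only.
Nr4a1: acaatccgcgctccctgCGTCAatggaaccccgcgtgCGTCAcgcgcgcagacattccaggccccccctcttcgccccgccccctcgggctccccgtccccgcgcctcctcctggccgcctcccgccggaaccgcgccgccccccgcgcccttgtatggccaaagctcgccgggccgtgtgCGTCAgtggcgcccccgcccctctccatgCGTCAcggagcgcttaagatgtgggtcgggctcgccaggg
Nr4a3: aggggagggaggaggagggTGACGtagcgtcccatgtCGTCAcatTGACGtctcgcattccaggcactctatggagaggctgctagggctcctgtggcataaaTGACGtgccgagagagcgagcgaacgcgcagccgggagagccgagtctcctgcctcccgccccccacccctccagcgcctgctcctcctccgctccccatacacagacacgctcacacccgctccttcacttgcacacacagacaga
Npas4: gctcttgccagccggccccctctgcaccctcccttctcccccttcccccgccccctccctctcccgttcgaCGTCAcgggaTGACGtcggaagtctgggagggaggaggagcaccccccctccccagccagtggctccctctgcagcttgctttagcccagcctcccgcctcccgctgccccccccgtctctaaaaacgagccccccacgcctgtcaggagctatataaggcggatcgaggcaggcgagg
Egr4: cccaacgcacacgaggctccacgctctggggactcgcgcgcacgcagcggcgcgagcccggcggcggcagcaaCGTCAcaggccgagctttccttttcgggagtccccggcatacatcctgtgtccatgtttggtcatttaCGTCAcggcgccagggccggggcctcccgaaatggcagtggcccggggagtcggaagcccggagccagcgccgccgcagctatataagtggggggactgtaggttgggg

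The window searched ran from 250 bases before to 50 bases after each start. Nr4a1 and Nr4a3 held 4 half-sites each, and Npas4 and Egr4 held 2 each. Of the 8 genes 5 had a promoter entry, and only these 4 are reported, so the counts do not cover the whole set. Among 32544 promoter windows of that length, 20.9% held 1 or more half-sites, 5.04% held 2 or more and 0.234% held 4 or more. In Npas4 the pair lay at -179 to -175 and at -169 to -165 from the start. Nr4a1 also held the letters bound by EGR proteins, GCGGGGGCG, on the minus strand at -60 to -52, as did 2.93% of all windows. The full palindrome TGACGTCA, found in 1.8% of windows, was in none of the 4, nor was the serum response element, found in 1.64%. A match in these letters is a description of the sequence and not a bound site.

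All 7 genes were lower in VTA than in S1, PrL and NAc, and 6 of 7 were lower in VBT than in those regions, the exception being Arc, which was not separated between VBT and NAc. The region fit used 98 libraries and 22326 genes (edgeR quasi-likelihood test, adjusted by Benjamini-Hochberg), and a difference was called at an adjusted p under 0.05. It called 61 of the 70 differences of the 7 genes between pairs of regions. Regions differ in most genes, so these counts must be read against the share of all genes called. VTA was lower than S1, PrL and NAc for 7 of 7 genes, where 74%, 75.8% and 75.4% of all genes were called in either direction. VBT was lower than S1 and PrL for 7 of 7, beside 74.3% and 76.1% of all genes, and lower than NAc for 6 of 7, beside 75.9%. VTA was lower than VBT for 6 of 7, beside 66%, with Npas4 not called. PrL was higher than NAc for 7 of 7, beside 65.7%, S1 was higher than NAc for 4, beside 64.7%, and between S1 and PrL 3 differed, beside 52.2%.

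Egr3 spanned the widest range of the 7. Its lowest, median and highest values were 0.844, 1.43 and 3.24 CPM in VTA, and 1.84, 3.36 and 22.4 CPM in VBT. They were 114, 192 and 322 CPM in S1, 121, 179 and 342 CPM in PrL, and 77.8, 105 and 187 CPM in NAc. No VTA or VBT library reached the lowest library of the other regions. The log2 difference of VTA minus PrL was -7.01 ± 0.23 (SE; adjusted p = 9.83e-44), and S1 and PrL differed by only -0.05 ± 0.16 (adjusted p = 0.837). Egr4 was likewise low in VTA and VBT, with medians of 0.391 CPM in VTA and 0.743 CPM in VBT, and of 18.9, 21.3 and 17.8 CPM in S1, PrL and NAc. The VTA values of Egr4 rest on 6 to 32 counts per library, so its small differences there were not detectable. Its log2 difference of VTA minus PrL was -5.83 ± 0.19 (adjusted p = 2.27e-44).

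Egr1, the best studied of the family, was highest in S1. Its lowest, median and highest values were 9.94, 15.2 and 20.5 CPM in VTA, 28.9, 45.1 and 74.6 CPM in VBT and 125, 243 and 717 CPM in S1. In PrL they were 112, 191 and 448 CPM and in NAc 107, 167 and 378 CPM. Here the 5 regions could be ordered throughout, since S1 exceeded PrL by 0.33 ± 0.13 (adjusted p = 0.0229) and PrL exceeded NAc by 0.29 ± 0.12 (adjusted p = 0.032) on the log2 scale. VBT exceeded VTA by a larger step, VTA minus VBT being -1.82 ± 0.13 (adjusted p = 2.15e-21).

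The nuclear receptors differed less between regions than Egr3 and Egr4 did. Nr4a1 had medians of 9.69 CPM in VTA and 14.7 CPM in VBT, and of 73.1, 78.9 and 51.9 CPM in S1, PrL and NAc, and S1 and PrL were not separated (log2 difference -0.05 ± 0.15, adjusted p = 0.824). Nr4a3 was highest in PrL, with a median of 39.7 CPM there against 23.2 in S1, 29.1 in NAc, 6.16 in VBT and 3.96 in VTA. For Nr4a3, S1 minus PrL was -0.79 ± 0.16 (adjusted p = 2.55e-05), the opposite order to Arc and Egr1.

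Arc varied widely between S1 libraries. There it ran from 25.3 CPM through a median of 123 to 593 CPM, a coefficient of variation of 88% over 19 libraries. In PrL it ran from 21.6 through 62.1 to 254 CPM and in NAc from 28.6 through 48.5 to 141 CPM. In VBT its median was 44 CPM and in VTA 20.2 CPM, and the VBT range of 16.3 to 58 CPM overlapped in part with that of NAc (log2 difference of VBT minus NAc -0.39 ± 0.22, adjusted p = 0.101). S1 exceeded PrL by 0.80 ± 0.22 on the log2 scale (adjusted p = 0.00145).

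Npas4 was the one gene for which the 2 low regions were not separated. Its median was 5.36 CPM in VTA and 4.39 CPM in VBT, and the log2 difference was -0.21 ± 0.20 (adjusted p = 0.362). In S1, PrL and NAc its medians were 17.5, 26.3 and 19.5 CPM. S1 did not differ from PrL (-0.39 ± 0.18, adjusted p = 0.0695) or NAc (0.09 ± 0.18, adjusted p = 0.7) beyond the threshold. That fit treats libraries as independent. With same-numbered libraries as a block 64 of the 70 differences were called, the 3 more being Npas4 (-0.46 ± 0.12, adjusted p = 0.00153) and Egr4 (-0.26 ± 0.12, adjusted p = 0.0497) for S1 minus PrL, and Nr4a3 for S1 minus NAc (-0.31 ± 0.11, adjusted p = 0.00963).

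Levels of different genes can be compared only per length of exon. Per kilobase of exon, mean CPM in S1 was 60 for Egr1, 49.9 for Arc, 41.8 for Egr3, 24.2 for Nr4a1, 9.17 for Egr4, 5.35 for Npas4 and 4.21 for Nr4a3. In VTA the order was another, with Arc first at 6.44, then Egr1 at 3.39 and Nr4a1 at 2.77, and Egr3 down at 0.369. The plot of values by region shows both patterns.

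**Figure D1:**
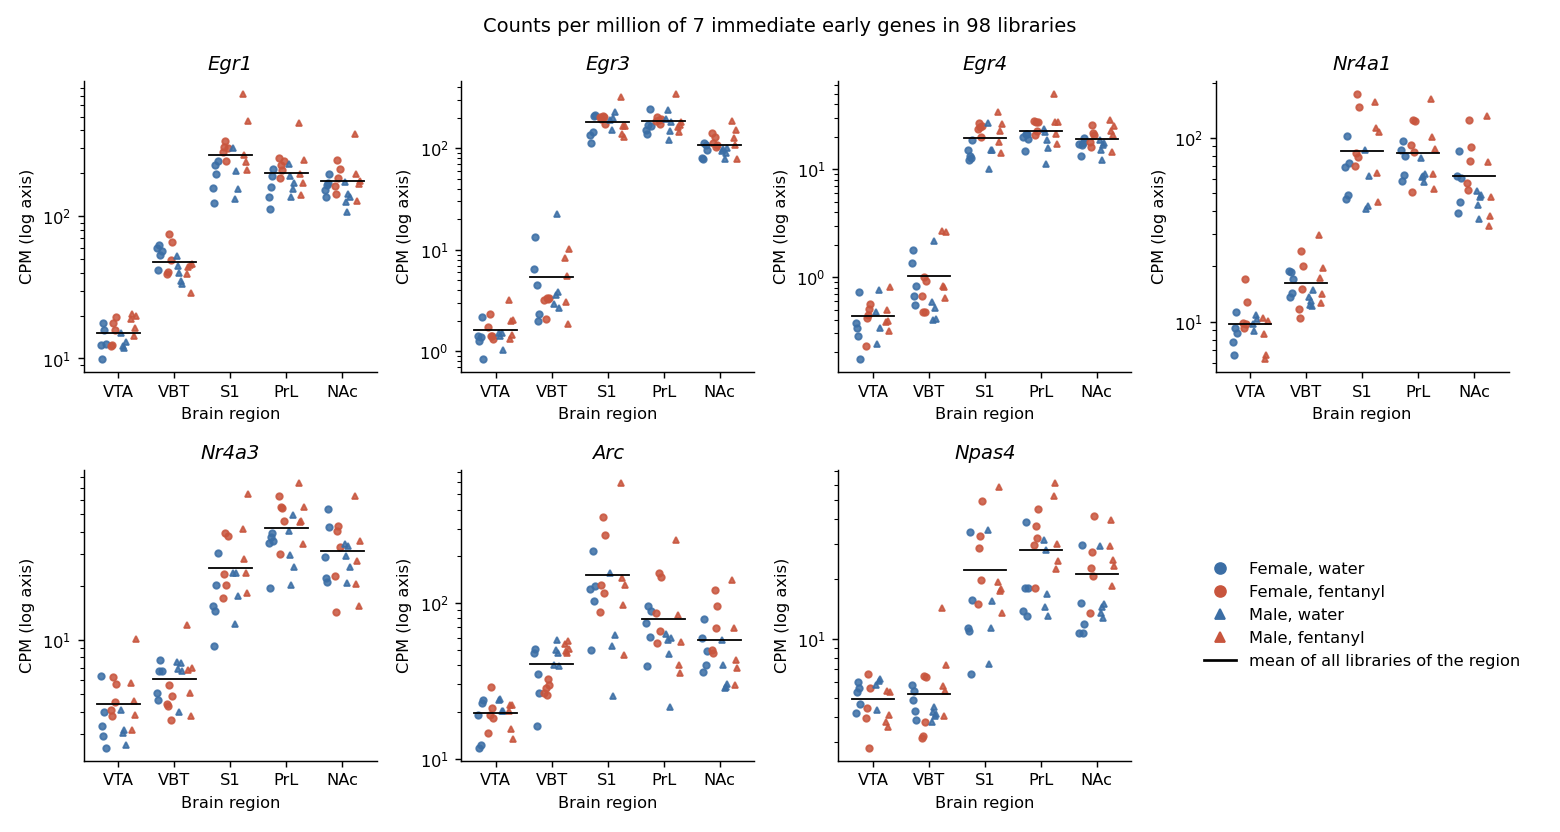
CPM (log axis) of 7 genes in each library of 5 brain regions, with shape for sex, colour for the dams' drinking water and a line at the mean of the region. Values in VTA and VBT lie below those in S1, PrL and NAc without overlap for Egr1, Egr3, Egr4 and Nr4a1. Arc in VBT, with a median of 44 CPM, overlaps with NAc, with a median of 48.5 CPM.

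Libraries of the same sex, treatment and number in different regions were high or low together for these genes. The labels do not say that a number stands for 1 animal, so such libraries are only called same-numbered. Each library's log2(CPM + 1), after TMM scaling, was taken as a deviation from the mean of its region, sex and treatment, and Pearson's r was computed over 18 to 20 same-numbered libraries for each of the 10 pairs of regions. Of the 70 values of r, 63 were above 0 and 36 were 0.5 or more, where the share of all genes at 0.5 or more was 3.68% to 9.88% in the 10 pairs. The mean r over 10 pairs was 0.3 or more for 4 of the 7 genes (Nr4a1, Egr1, Nr4a3 and Npas4), against 3.66% of 17595 genes. The median of all genes was 0.0301.

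Nr4a1 showed the pattern in every pair. Its mean r was 0.813, with pairs between 0.68 and 0.909 and a mean Spearman's rho of 0.8, and only 0.0739% of all genes had a mean as high. When numbers were permuted within groups 100000 times, the p for Nr4a1 was 1e-05, the smallest that these permutations can give. Without the 2 farthest libraries of each pair its mean r was 0.754. The highest r, 0.909 over 20 libraries, was between VBT, where the gene is low, and NAc, where it is high.

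The sets that carried this could be read off directly. In male fentanyl 1, Nr4a1 stood above its group in 5 of 5 regions, by a mean of 0.82 on the log2 scale, with 10.5 CPM in VTA and 29.6 CPM in VBT, and 158, 162 and 132 CPM in S1, PrL and NAc. Female fentanyl 3 stood above its group in 5 of 5 by a mean of 0.62, with 17.1, 24.3, 173, 125 and 126 CPM in the same order. Male fentanyl 4 stood below in 5 of 5 by a mean of -0.57, and male fentanyl 3 by -0.49. High and low sets occurred under water too, where female water 2 stood below in 5 of 5 (mean -0.41) and female water 3 above in 5 of 5 (mean 0.36).

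Egr1 followed with a mean r of 0.589 (permutation p = 1e-05, and 0.381% of all genes as high), Nr4a3 with 0.552 (permutation p = 1e-05, 0.5%) and Npas4 with 0.486 (permutation p = 1e-05, 0.83%). All 10 pairs were above 0 for each of these 3. For Npas4 the lowest was 0.144, between VBT and S1, and the highest 0.877, between S1 and NAc. Arc (0.292, permutation p = 0.00103, 3.92% of genes as high), Egr4 (0.267, permutation p = 0.00586, 4.91%) and Egr3 (0.253, permutation p = 0.0109, 5.67%) had lower means. Egr3 depended on 1 set, since without male fentanyl 1 its mean r was 0.03.

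Arc, Egr3 and Egr4 had their highest mean r among the 3 high regions. Between S1, PrL and NAc the mean r was 0.873 for Arc, 0.612 for Egr3 and 0.615 for Egr4, as for Nr4a1 with 0.869, Egr1 with 0.824, Npas4 with 0.769 and Nr4a3 with 0.633. Without the 2 farthest libraries of each pair it was 0.827 for Arc, but 0.369 for Egr3 and 0.438 for Egr4. Between VBT and these 3 regions, Arc gave r of -0.356, -0.266 and -0.217, and Egr3 gave -0.212, -0.326 and -0.457. Without the 2 farthest libraries of each pair these values were -0.141, -0.102 and 0.0664 for Arc and 0.115, 0.0322 and -0.371 for Egr3. The mean over the 6 pairs without VBT was 0.604 for Arc and 0.554 for Egr3, and 0.569 and 0.267 without the 2 farthest. The 4 pairs with VBT gave -0.18 for Arc and -0.20 for Egr3, and -0.02 and -0.06 without the 2 farthest, against 0.864 and 0.8 for Nr4a1. In VBT, Egr3 was highest in the 3 libraries with high striatal markers. A test of the difference between these sets of pairs was not run.

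The genes did not all peak in the same sets. Arc in male fentanyl 1 was 593 CPM in S1, 254 in PrL and 141 in NAc, the highest of each region. Npas4 in that set was 19.3 CPM in S1, 52.5 in PrL and 29.3 in NAc. Instead, Npas4 was highest in male fentanyl 2 in S1 (58.4 CPM) and PrL (61.1 CPM), and in female fentanyl 5 in NAc (41.8 CPM), while Arc in male fentanyl 2 was at 144, 84.3 and 69.3 CPM. The map of same-numbered libraries shows these sets side by side.

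**Figure D2:**
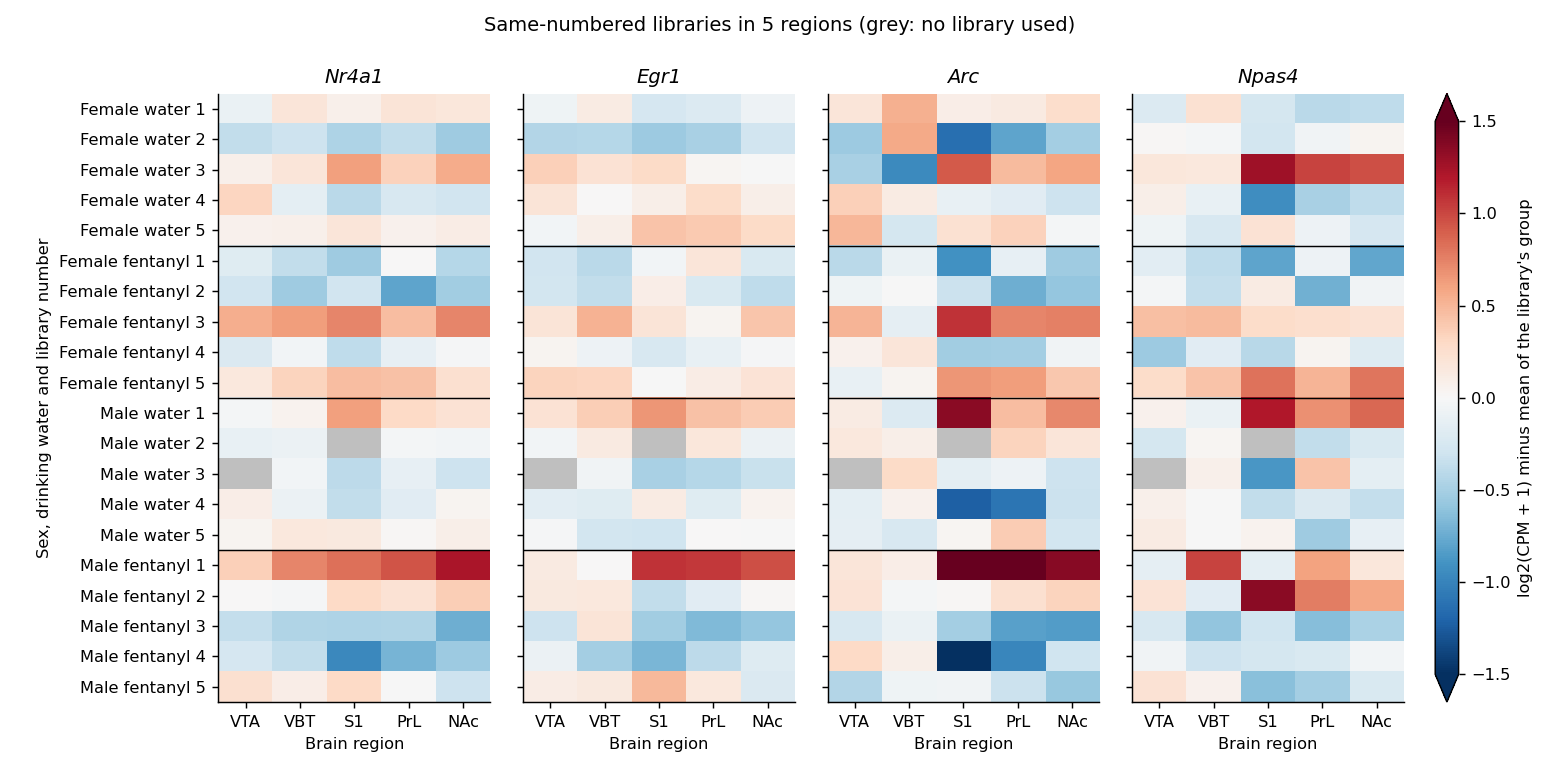
Deviation of each library's log2(CPM + 1) from the mean of its region, sex and treatment, with 1 row per sex, treatment and number and 1 column per region (red above, blue below, grey where no library was used). The male fentanyl 1 row is red in 5 of 5 regions for Nr4a1, and in S1, PrL and NAc for Arc, whereas the male fentanyl 2 row is red in those regions for Npas4.

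The 3 measures of library quality had means near 0. Over the same 10 pairs the mean r was 0.05 for the percent of reads outside exons, -0.04 for the log2 total count and 0.08 for the number of genes detected. Summed markers gave -0.12 for thalamic relay, 0.09 for cortex, 0.07 for striatal projection and 0.16 for oligodendrocytes. Endothelium markers gave 0.282, with all 10 pairs above 0, which is near the means of Arc, Egr4 and Egr3. Summed blood markers, 5 genes with 23 to 572 CPM in all, gave 0.729, so they too tracked the number. The mean deviation of a set in blood markers and in Nr4a1 had r = 0.01 over 20 sets (permutation p = 0.974) and rho = -0.01 (permutation p = 0.963), and r without the 2 farthest sets was -0.03. Among 7 such relations, 1 for each gene, the lowest adjusted p was 0.879 for r and 0.963 for rho (Benjamini-Hochberg over the 7, permutation tests).

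**Figure D3:**
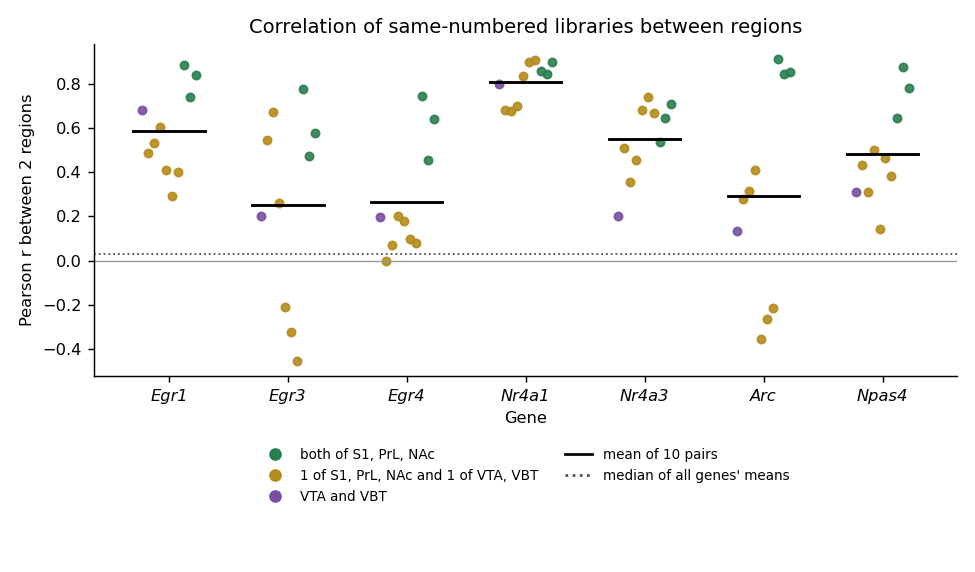
Pearson's r of same-numbered libraries between each pair of regions, for 7 genes, coloured by which regions are paired, with a line at each gene's mean and a dotted line at the median of all genes' means (0.0301). For Nr4a1 all 10 points lie between 0.68 and 0.909, while for Arc and Egr3 the pairs of VBT with S1, PrL or NAc lie below 0.

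Within a region the genes also varied together, most in the cortex. The median r over the 21 pairs of genes was 0.67 in PrL, 0.618 in S1, 0.534 in NAc, 0.371 in VBT and 0.305 in VTA, where pairs among every 20th gene had a median between -0.00216 and 0.00211. Nr4a1 and Arc were the closest pair in S1 (0.918), PrL (0.902) and NAc (0.935), but had r of -0.164 in VBT. There Nr4a1 ran with Npas4 (0.897). Egr3 and Npas4 were the pair least alike over all 98 libraries, with r = 0.07.

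The genes outside the 8 most like each member, by r of the same deviations over 98 libraries, were 17 in all, of which 6 came from the list of other fast response genes, a list that held 30 of the 17595 genes compared. Nr4a1 was most like 1700016P03Rik, the noncoding host of the activity-induced microRNAs miR-212 and miR-132 (0.908), Fos (0.858) and Dusp1, a phosphatase that switches MAP kinases off (0.825). Egr1 was most like Fos (0.797), Midn (0.715) and Dnajb5 (0.714). Arc was most like 1700016P03Rik (0.778), Arl4d (0.767) and Tnfrsf25 (0.738). Npas4 was most like Btg2 (0.685), Junb (0.684) and 1700016P03Rik (0.65), and Nr4a3 was most like Fosl2 (0.669), Fos (0.647) and Spry4 (0.627). Egr4 was most like Fosb (0.697), Per2, a clock gene (0.687), and Grasp (0.637). Egr3 stood apart, with Tmem121b (0.793), Akap5, a synaptic scaffold (0.791), and Cd4 (0.77). These r values share libraries and depth and are a description.

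Other genes of the pathway were taken from 4 lists. Of 30 tested fast response genes outside the 8, 14 had a mean r over regions of 0.3 or more, beside 3.66% of all genes, led by Fos (0.76), Dusp1 (0.69), Per1 (0.59) and Klf4 (0.55). Of 22 delayed and synaptic response genes 4 did, among them Gpr3 (0.61) and Sertad1 (0.53). Of 24 upstream kinases and transcription factors 1 did, Creb1 (0.32), and of 8 partners and inhibitors 0 did, the highest being Nab2, a corepressor of EGR proteins (0.20), which is near the share of all genes. The median of the fast list was 0.274, and that of the upstream list was 0.00235.

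Fentanyl minus water was tested in each region in females, in males, as their average and as the difference between the sexes. Of 140 such tests of the 7 genes, 2 were called, both for Egr1 in VTA. No gene was called in females of any region, where 0% of all genes were called in VTA, VBT and NAc, 0.142% in S1 and 0.021% in PrL. In no region was the difference between the sexes called for any gene, where the count over all genes was also 0 by edgeR, with an unadjusted p under 0.05 for 2 of 35 (Nr4a1 in VTA, where 11.4% of all genes passed, and Npas4 in VBT, where 8.03% did).

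In VTA males Egr1 was 19.1, 20.5, 14.3, 16.2 and 19.8 CPM in the fentanyl libraries and 15.2, 12.3, 11.8 and 13.1 CPM in the 4 water libraries. The groups overlapped in that fentanyl library 3 lay below water library 1. The log2 fold change was 0.49 ± 0.16 (SE; edgeR adjusted p = 0.0346), in a contrast that called 22% of all genes. In females Egr1 was 12.3 to 19.4 CPM under fentanyl and 9.94 to 17.9 CPM under water, a log2 fold change of 0.16 ± 0.15 (adjusted p = 0.677). Averaged over the sexes it was 0.33 ± 0.11 (adjusted p = 0.0386), where 23.1% of all genes were called. The average was 0.19 by limma-voom (adjusted p = 0.262), and the call ended in 12 of 19 cases when 1 library was left out. The 2 libraries high in choroid plexus markers were among them, the average being 0.32 without male water 2 (adjusted p = 0.0668) and 0.32 without female water 5 (adjusted p = 0.0628).

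The VTA contrast also followed base composition. Across 19802 genes, the male log2 fold change had a Spearman's rho of -0.585 with GC content, and Egr1, with 57.3% GC against a median of 48.71% over protein-coding genes, lay against that trend. With offsets for GC content the Egr1 value in males was 0.75 (adjusted p = 0.015), where 4.2% of all genes were called. The average was then 0.50 (adjusted p = 0.0114), beside 4.96% of all genes. The call for Egr1 in males was lost when the share of reads outside exons was a covariate (adjusted p = 0.0503), without a filter on low counts (0.067), with the replicate block (0.0612, against 0.0315 when GC offsets were added to it) and by limma-voom (0.0882), and without any 1 of male fentanyl 1, 2 and 5 and male water 2, 4 and 5 (adjusted p up to 0.11 over the 19 libraries left out in turn). Dopamine neuron markers summed to medians of 678 CPM in fentanyl males and 1143 CPM in water males, and blood markers to 203 and 91 CPM. Mitochondrial genes made up 4.71% to 5.81% of counts in fentanyl males and 3.63% to 4.92% in the water males used. Their part in the Egr1 value was not tested.

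Nr4a3 had the larger male estimate in VTA, 0.80 ± 0.31, with an adjusted p of 0.0682. It was 5.77, 3.16, 4.59, 3.85 and 10.1 CPM in fentanyl males and 4.08, 3.04, 3.16 and 2.61 CPM in water males, so that 1 fentanyl library stood high and the groups overlapped. DESeq2 (adjusted p = 0.0263), limma-voom (0.0456) and the share of reads outside exons as covariate (0.0433) called Nr4a3, beside 25.4%, 32.9% and 27% of all genes. It was not called with GC offsets (0.164), without a filter on low counts (0.15) or with the replicate block (0.0942), and without male fentanyl 5 the estimate was 0.48 (adjusted p = 0.207). Nr4a1 was 0.41 ± 0.18 in females and -0.21 ± 0.19 in males, and the difference of -0.62 ± 0.26 did not pass the test (adjusted p = 0.42). With GC offsets the male value was 0.04 (adjusted p = 0.934) and the female one 0.51 (adjusted p = 0.409). Npas4 in VTA was -0.16 ± 0.18 in females and -0.30 ± 0.19 in males. Its average was -0.23 ± 0.13 (edgeR adjusted p = 0.228), and limma-voom called it at -0.39 (adjusted p = 0.0247), beside 26.9% of all genes. With GC offsets it was -0.09 (adjusted p = 0.753), and -0.13 with the block added (adjusted p = 0.676).

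In S1, PrL and NAc nearly all estimates were above 0 and none was called. Averaged over the sexes, 7 of 7 were positive in each of these regions, with median log2 fold changes of 0.73 in S1, 0.54 in PrL and 0.43 in NAc, beside medians of all genes of 0.00, -0.01 and 0.00. The edgeR average contrast called 1.03% of all genes in S1, 0.697% in PrL and 0% in NAc. In males alone the shares were 0% in S1 and PrL and 0.662% in NAc. At an unadjusted p under 0.05, 5 of the 7 averages passed in each region, where 15.8% of all genes passed in S1, 19.1% in PrL and 12% in NAc. The 3 regions share numbered sets that vary together, so they are not 3 independent observations. In PrL the percent of reads outside exons also differed between the groups, at 9.48% to 11.2% in fentanyl females against 11.5% to 13.3% in water females, and 10.4% to 12.2% against 12% to 13.7% in males. With that percent as a covariate the PrL average was positive for 5 of 7 and its median was 0.07. In S1 it was then positive for 7 of 7 with a median of 0.83, and in NAc for 6 of 7 with a median of 0.49. In PrL the percent barely overlapped between fentanyl and water, so the fit can hardly separate it from treatment. The SE of Nr4a3 in the PrL average went from 0.19 to 0.37. PrL libraries female water 5 and male water 3 also stood apart, with olfactory bulb markers summing to 208 and 411 CPM against at most 42 CPM in the other 18, and cortical markers to 1736 and 1504 CPM against at least 1996 CPM. Without both, a fit chosen after seeing the data, the PrL average stayed positive for 7 of 7 with a median of 0.49 and no gene was called. Egr3 moved from 0.18 to 0.10 on average.

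Arc had the largest average estimate in S1, 1.06 ± 0.49 (adjusted p = 0.308). Its S1 values were 88, 131, 358, 116 and 276 CPM in fentanyl females and 123, 50.3, 217, 104 and 129 CPM in water females. In males they were 593, 144, 97.8, 46.7 and 132 CPM under fentanyl and 156, 53.2, 25.3 and 62.1 CPM under water. Both pairs of groups overlapped, and male fentanyl 1 lay far above every other library. Without that library the male estimate of Arc went from 1.49 to 0.54 (S1), 0.95 to 0.12 (PrL) and 0.82 to 0.30 (NAc).

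Egr1 leaned on the same library. Its average in S1 was 0.79 ± 0.24 (adjusted p = 0.118), in PrL 0.48 ± 0.19 (adjusted p = 0.179) and in NAc 0.42 ± 0.17 (adjusted p = 0.339). The male estimate without male fentanyl 1 went from 0.97 to 0.62 (S1), 0.47 to 0.10 (PrL) and 0.65 to 0.31 (NAc). Egr3 was near 0 in S1 (0.12 ± 0.17) and PrL (0.18 ± 0.16) and reached 0.43 ± 0.13 in NAc (adjusted p = 0.279). Nr4a1 was 0.73 ± 0.26 in S1 (adjusted p = 0.188), 0.45 ± 0.20 in PrL and 0.50 ± 0.24 in NAc, and without male fentanyl 1 its male estimate went from 0.78 to 0.54, from 0.56 to 0.25 and from 0.55 to 0.11 in that order.

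In S1 females Egr4 was 23.8, 27, 24.5, 19.9 and 25 CPM under fentanyl and 15.1, 12.2, 13.3, 12.7 and 18.9 CPM under water, so that the groups did not overlap, in a contrast that called 0.142% of all genes. Its log2 fold change there was 0.73 ± 0.24 (edgeR adjusted p = 0.192), and the fit of the female libraries alone called it (adjusted p = 0.00495), beside 1.45% of all genes. Fold changes in S1 females rose with GC content across genes (Spearman's rho 0.345), Egr4 has 68.2% GC, and with GC offsets its value was 0.53 (adjusted p = 0.372). Its male estimates without male fentanyl 1 were 0.31 in S1, 0.35 in PrL and 0.41 in NAc, where with it the PrL value was 0.67 and the NAc value 0.52. Npas4 averaged 0.72 ± 0.39 in S1, 0.80 ± 0.26 in PrL (adjusted p = 0.122) and 0.70 ± 0.24 in NAc (adjusted p = 0.301), and its male estimates without male fentanyl 1 were 0.65, 0.75 and 0.67. With the share of reads outside exons as covariate the PrL average of Npas4 was 1.62 ± 0.49 (adjusted p = 0.521). In S1 Npas4 rested on another library, since without male fentanyl 2, at 58.4 CPM and high in choroid plexus markers, its male estimate went from 0.57 to 0.02 and its average from 0.72 to 0.45. Nr4a3 averaged 0.75 ± 0.28 in S1 and 0.63 ± 0.19 in PrL (adjusted p = 0.104), but 0.03 ± 0.26 in NAc, where its male estimate without male fentanyl 1 was -0.19. DESeq2 called Egr1 and Egr4 in the S1 average (adjusted p = 0.0409 and 0.0429), where it called 3.27% of all genes against 1.03% by edgeR. It called Nr4a3 and Npas4 in the PrL average (0.032 and 0.0497), beside 4.08% of all genes, and Egr3 and Egr4 in NAc males (0.0438 and 0.0379), beside 4.74%.

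In NAc the amount of cortical RNA also varied. Summed cortical markers had medians of 604 CPM in fentanyl females, 1022 CPM in water females, 681 CPM in fentanyl males and 567 CPM in water males. Across the 20 NAc libraries, log2 Nr4a3 and log2 cortical markers had r = 0.683 (permutation p = 0.00089, adjusted p = 0.00623) and rho = 0.687 (permutation p = 0.00119, adjusted p = 0.00833), and r = 0.71 without the 2 farthest. Egr3 ran the other way, with r = -0.490 (permutation p = 0.0284, adjusted p = 0.0994) and rho = -0.469 (permutation p = 0.0383, adjusted p = 0.162). For the remaining genes r lay between -0.38 and 0.08. These were 14 relations, for 7 genes with 1 marker list each in NAc and VBT, adjusted together. Their part in the fentanyl estimates was not tested.

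In VBT 0 of 7 estimates were positive in females and 5 of 7 in males, with 0% of all genes called in females, males or on average. Npas4 in males had the lowest p, with 14.3, 5.76, 4.07, 5.44 and 7.38 CPM under fentanyl and 3.78, 4.24, 4.5, 4.05 and 4.14 CPM under water. Its log2 fold change was 0.83 ± 0.28 (unadjusted p = 0.00815 and adjusted p = 0.363 in edgeR), and without male fentanyl 1, at 14.3 CPM, it was 0.41 (adjusted p = 0.601). In females it was -0.08 ± 0.28, and the difference between the sexes of 0.91 ± 0.40 did not pass (adjusted p = 0.553).

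**Figure D4:**
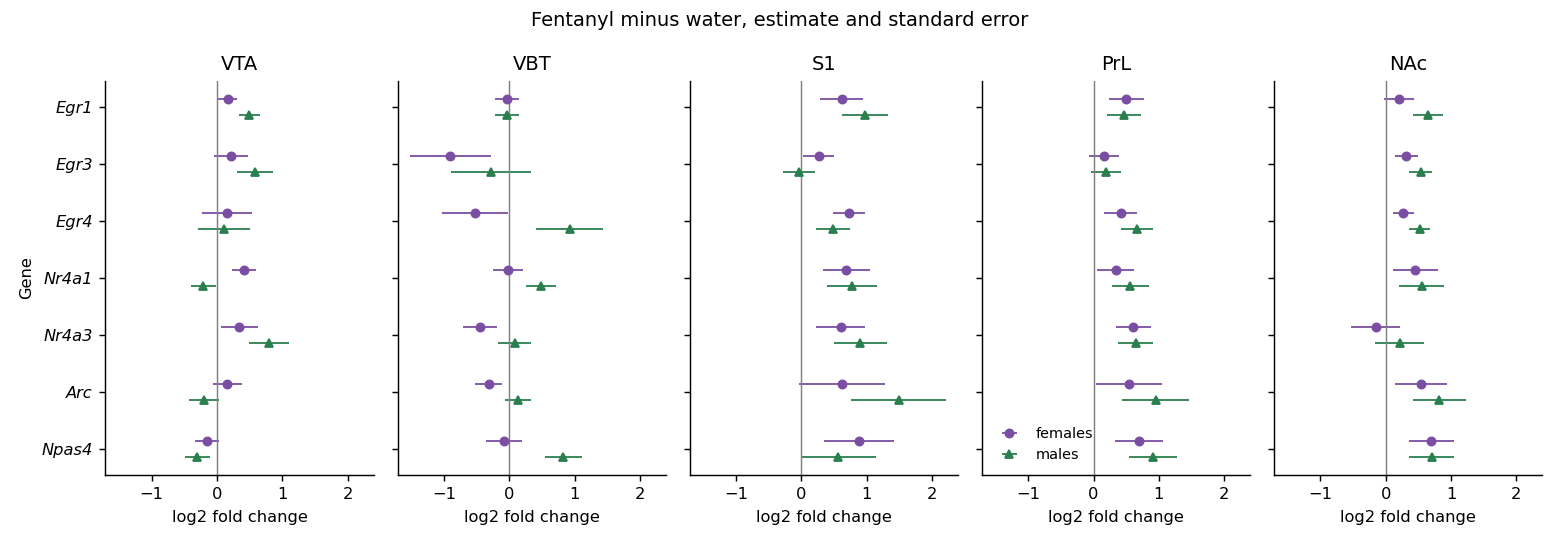
Log2 fold change of fentanyl over water with its standard error for 7 genes in females (circles) and males (triangles) of each region. Estimates in S1, PrL and NAc lie mostly right of 0, and 1 of the points shown passed the adjusted test, Egr1 in VTA males at 0.49.

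Egr3 in VBT varied with striatal markers. It was 22.4 CPM in male water 3, 13.4 in female water 2 and 10.2 in male fentanyl 5, the 3 libraries with the highest striatal marker sums, and 1.84 to 8.34 CPM in the other 17. Across 20 libraries the log2 values had r = 0.932 (permutation p = 1e-05, adjusted p = 0.00014 over the 14 relations) and rho = 0.759 (permutation p = 0.00019, adjusted p = 0.00266). Without the 2 farthest libraries r was 0.829. Thalamic relay markers in the 3 libraries summed to 1352, 2169 and 1713 CPM, and in the other 17 to between 2016 and 4190 CPM. A fit without the 3 libraries was chosen after seeing the data. In it the female estimate for Egr3 moved from -0.90 to -0.34 and the male one from -0.28 to 0.53, none called. Egr4 varied with the same markers less closely, at r = 0.695 (permutation p = 0.00152, adjusted p = 0.00709) and rho = 0.376 (permutation p = 0.103, adjusted p = 0.24), with r = 0.588 without the 2 farthest. In the same fit without the 3 libraries the average estimate of Egr4 moved from 0.20 to 0.55 and its female one from -0.52 to -0.25. For Arc r was 0.403 (permutation p = 0.0754, adjusted p = 0.211), and for the other 4 genes it lay between -0.08 and 0.14.

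**Figure D5:**
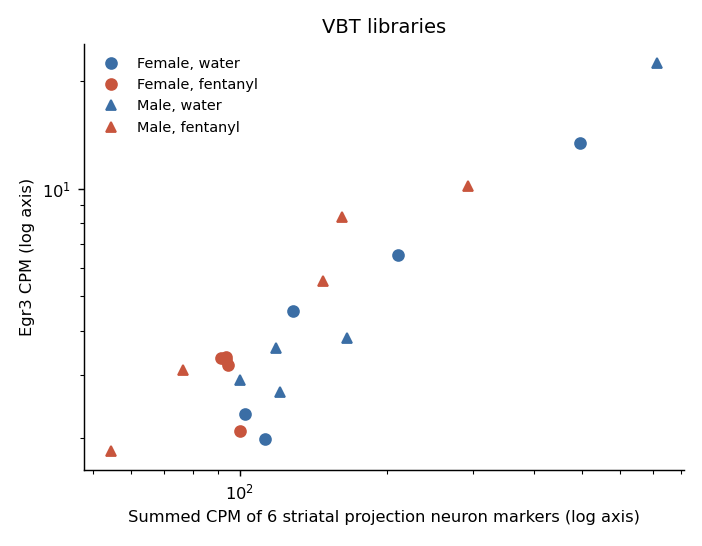
Egr3 in CPM against the summed CPM of 6 striatal projection neuron markers (both axes log) in the 20 VBT libraries, with shape for sex and colour for the dams' drinking water. The 3 libraries with marker sums of 293, 496 and 714 CPM have the 3 highest Egr3 values, 10.2, 13.4 and 22.4 CPM.

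Males and females did not differ in any of the 7 genes by the main test, where the share of all genes called was 0.0858% in VTA and 0.132% in VBT, and 0.0709%, 0.0786% and 0.077% in S1, PrL and NAc. At an unadjusted p under 0.05, 2 of the 35 passed in edgeR, both in VBT, where 13.1% of all genes passed. Arc in VBT had 39.3 to 58 CPM in males and 16.3 to 50.8 CPM in females, so that the ranges overlapped. The log2 difference, male minus female, was 0.63 ± 0.14 (edgeR adjusted p = 0.103), and DESeq2 (0.00327) and limma-voom (0.00803) called it, beside 1.36% and 2.27% of all genes. Egr1 in VBT ran the other way at -0.42 ± 0.13 (adjusted p = 0.21).

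In the other pathway genes, calls under fentanyl fell in VTA, where 22% of all genes were called in males and 23.1% on average. Of 30 fast response genes 1 fell in VTA males (Jun, -0.25 ± 0.08, adjusted p = 0.0338), and on average 2 rose, Fos (0.83 ± 0.24, adjusted p = 0.0217) and Atf3 (0.68 ± 0.22, adjusted p = 0.028). Of 22 delayed response genes 5 rose in VTA males, among them Mbnl2 (0.55 ± 0.10, adjusted p = 0.00267) and Tiparp (0.49 ± 0.12, adjusted p = 0.00723). Of 24 upstream genes 4 rose in VTA males, including Creb1 (0.40 ± 0.09, adjusted p = 0.00633), and 6 fell, including Srf (-0.37 ± 0.08, adjusted p = 0.00467) and Map2k2 (-0.51 ± 0.09, adjusted p = 0.00229). Rxrb, a partner of Nr4a1, was the 1 of 8 partners that fell (-0.35 ± 0.08, adjusted p = 0.00547). With GC offsets, where 4.2% of all genes were called in males and 4.96% on average, most of these calls were lost. In males 0 of the 30 fast, 2 of the 22 delayed and 1 of the 24 upstream genes then rose and 0 in those 3 lists fell. Of the 8 partners 1 then rose and 0 fell. Mbnl2 stayed at 0.55 (adjusted p = 0.0111), but Jun was -0.05 (0.731), Tiparp 0.27 (0.0906), Creb1 0.17 (0.193), Srf 0.09 (0.474), Map2k2 -0.16 (0.061) and Rxrb 0.03 (0.749). On average Fos was 0.88 (adjusted p = 0.0464) and Atf3 0.74 (adjusted p = 0.0527). In S1, where none was called, 29 of 30 fast response genes had positive average estimates, with a median of 0.35. Of all genes 50.6% were positive there, with a median of 0.00. The 30 genes share the same libraries and are not 30 independent observations. Average fold changes in S1 also rose with GC content across genes (Spearman's rho 0.252). The count is given for S1 alone.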

How the data were processed

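Bulk RNA-seq libraries were made with SMART-Seq v4 from punched tissue, per the labels' protocols. The authors deposited 1 table of raw counts per library, made with HTSeq on build GRCm38, per the submitters' processing notes. The aligner is not given in the sources used here. Symbols for 55154 of 55335 identifiers came from GENCODE M21. Library totals of the 98 libraries used were 23032078 to 52069639 counts. Each region was fitted alone, with 4 groups of sex and treatment (edgeR 4.0.16, TMM, filterByExpr, quasi-likelihood test, Benjamini-Hochberg over all genes tested). Contrasts were female, male, their average, their difference and sex, and all regions together for levels. DESeq2 1.42.0 and limma 3.58.1 were alternatives. The scripts were tested on simulated data. Labels do not say that libraries came from separate litters, so p-values measure the spread between these libraries. The members, lists and markers were chosen with earlier results of these data known. Genes named from the lists were the 2 with the lowest adjusted p in each direction, and like genes the 3 with the highest r.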

Additional observations from a re-analysis of the deposited data

Results flagged for a closer look

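In 14 of 140 groups of 4 or 5 libraries, 1 value lay far from the others for its group, where chance flags about 1 in 20 groups, or about 7. Libraries of male fentanyl 1 gave 5 of these. They were Arc at 593 CPM in S1 and 254 CPM in PrL, Egr3 at 322 CPM in S1 and 342 CPM in PrL, and Egr1 at 378 CPM in NAc. The VBT library male water 3 gave 3, with Egr3 at 22.4 CPM, Egr4 at 2.17 CPM and Nr4a3 low at 3.97 CPM.

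Npas4 stood apart in other sets, at 58.4 CPM in S1 male fentanyl 2, 38.8 CPM in PrL female water 3, 29.7 CPM in NAc female water 3 and 29.4 CPM in NAc male water 1. Values on the low side were Nr4a3 at 19.4 CPM in PrL female water 2 and Egr3 at 2.09 CPM in VBT female fentanyl 2.

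The VTA library that was left out, male water 3, held Nr4a3 at 148 CPM, Npas4 at 72.2 CPM and Egr3 at 16.3 CPM. The highest values in the other VTA libraries were 10.1, 6.59 and 3.24 CPM. Egr1, Egr4, Nr4a1 and Arc were listed at 0 in it.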

How the results depend on the processing

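The number of the 7 genes called moved with the setting. In VTA males it was 1, and it was 2 by DESeq2's Wald test, beside 22% and 25.4% of all genes. There it was 0 without a filter on low counts, 0 with VTA male water 3 kept and 0 to 2 with 1 library left out. limma-voom and the share of reads outside exons as covariate gave 1 there, which was Nr4a3 and not Egr1, beside 32.9% and 27% of all genes. In the VTA average it was 1, and 2 by DESeq2 and 2 at a mean of 50 counts or more (beside 26.1% and 32.5% of all genes), 0 without a filter, 0 with male water 3 kept and 0 to 2 with 1 library left out. By limma-voom it was 3, namely Nr4a3, Egr3 and, lower, Npas4, but not Egr1 (adjusted p = 0.262), beside 26.9% of all genes. With the covariate it was Nr4a3 alone, beside 28.8%. Where it was 0, DESeq2 called 2 in the S1 average, 2 in the PrL average, 2 in NAc males and 1 for sex in VBT, where it called 3.27%, 4.08%, 4.74% and 1.36% of all genes. limma-voom called 1 in NAc males and 1 for sex in VBT, beside 7.76% and 2.27%. The percent outside exons as a covariate gave 1 in NAc males and 1 in the NAc average, beside 1.62% and 2.02%, and the fit of S1 females alone gave 1, beside 1.45%. With 1 library left out the count was 0 to 1 in the S1 average, NAc males, the NAc average and for sex in VBT. The mean r of Egr3 between regions was 0.13 with male water 3 kept. Of same-numbered fentanyl and water libraries of 1 sex, 14 of 48 pairs had deviations correlated over 0.1 over all genes (median 0.056). For same-numbered libraries in 2 regions it was 65 of 192 (median 0.0493). The shares are alike, so this check cannot tell whether a number pairs a fentanyl with a water library. With the replicate number as a block, 0 of the 7 were called in VTA males and 0 in the VTA average. Block and GC offsets together called Egr1 in both, at 0.73 (adjusted p = 0.0315) and 0.49 (adjusted p = 0.0234), beside 2.55% and 3.39% of all genes. The causes were not tested. Depth limits Egr4 in VTA, at 6 to 32 counts per library.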
